A study of Mus musculus with 12 samples.

Results

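The 4 genes described here carry the step from glucose to membrane voltage in beta cells. They are Abcc8 and Kcnj11, which encode the ATP-sensitive potassium (KATP) channel, Slc2a2, which encodes the glucose transporter GLUT2, and G6pc2, which encodes a glucose-6-phosphatase of islets. They were chosen by name, as 4 of the 55487 genes in the deposited count table, and all 4 were among the 16808 genes with enough counts to be tested. RNA was sequenced from Min6, a beta cell line from a mouse insulinoma, in 12 libraries of 4 groups with 3 libraries each. All groups were kept for 48 h, in DMSO (control), in 1 µM of the FoxO1 inhibitor AS1842856 (FoxOi), in 5 µM of loperamide, an agonist of opioid receptors, or in 1 µM of FoxOi with 5 µM of loperamide (FoxOi_Loperamide). By its title, the series uses the inhibitor to model the loss of beta cell identity. The labels name no separate cultures behind the replicate numbers, so the p-values measure the spread between these libraries, which may be technical. Min6 is a tumour line and not islet tissue.

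In a beta cell, glucose enters through GLUT transporters and is phosphorylated to glucose-6-phosphate. Breakdown of glucose-6-phosphate raises the ratio of ATP to ADP, which closes the KATP channel, and the membrane then depolarises, calcium enters and insulin granules fuse. The channel is an octamer of a pore subunit, Kir6.2 (Kcnj11), and a regulatory subunit, SUR1 (Abcc8), in equal numbers, and neither subunit reaches the surface without the other. G6PC2 works against this phosphorylation by turning glucose-6-phosphate back into glucose in the endoplasmic reticulum.

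Depth ran from 10640485 to 19499216 counts per library. Beta cell markers were present in all groups, with Ins2 at a mean of 13641 FPKM or more (counts scaled by the authors for transcript length and library size), Pdx1 at 80.2 FPKM or more and Nkx6-1 at 60.7 FPKM or more. Their levels moved with the groups: in DMSO, FoxOi, Loperamide and FoxOi_Loperamide, Mafa stood at 295, 31.2, 276 and 62.1 FPKM, Ins1 at 3645, 1289, 2347 and 986 FPKM, and Ins2 at 35326, 13641, 32797 and 14424 FPKM. Ucn3 stood at 7.61, 3.01, 7.17 and 1.49 FPKM, Iapp at 21644, 17248, 15745 and 7398 FPKM, and Slc30a8 at 197, 159, 208.5 and 186 FPKM. The acinar markers Cpa1 and Prss1, the fibroblast marker Col3a1 and, except for 1 count each in Loperamide and FoxOi_Loperamide, the endothelial marker Cdh5 were at 0 counts. The other markers of these cells, Krt19, Sox9, Col1a1 and Pecam1, had 0 to 114 counts per group. Of the leukocyte markers, Ptprc had 1 to 2 counts per group, Lyz2 had 109 to 176, and Cd68 had 95 in DMSO, 978 with FoxOi, 46 with loperamide and 230 with both. Of the hormone genes of other islet cells, Gcg stood at 656 FPKM in DMSO, 984 with FoxOi, 111 with loperamide and 537 with both, and Sst at 72.2, 144, 13.9 and 16.1 FPKM. These markers moved with the groups, and their part in the results below was not tested. In bulk RNA, fewer cells with a transcript and less of it per cell cannot be told apart.

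Per length, the 4 genes spanned nearly the whole range of expression in DMSO. G6pc2 stood at 876 ± 26.9 FPKM (SD, n = 3), rank 45 of 16808 genes tested, Abcc8 at 304 ± 5.30 FPKM, rank 148, and Kcnj11 at 77.0 ± 0.27 FPKM, rank 980. Slc2a2 stood at 0.339 ± 0.065 FPKM, rank 15665, above 6.80% of the genes tested. GLUT2 is the main glucose transporter of mouse beta cells, and in these Min6 libraries its transcript was near the lower end of what could be tested, below that of GLUT1 (Slc2a1), at 6.998 ± 0.54 FPKM. The lengths behind the FPKM values lie within 0.106% of the longest coding transcript of each gene in GENCODE M21.

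**Figure D1:**
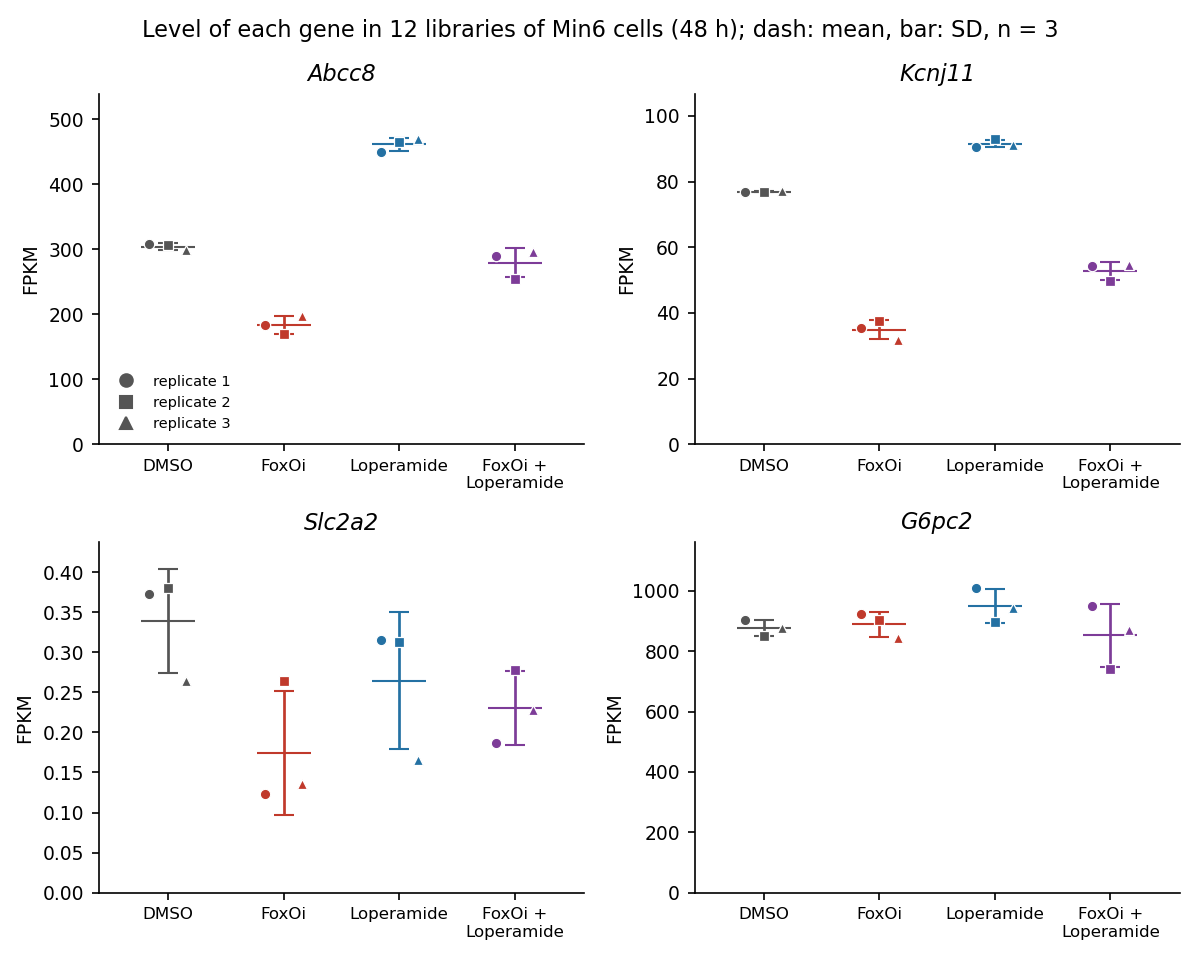
FPKM (linear axis from 0) of Abcc8, Kcnj11, Slc2a2 and G6pc2 in each of the 12 libraries, with symbols for replicates 1 to 3 and the mean ± SD of each group. Abcc8 and Kcnj11 are lowest in the 3 FoxOi libraries and highest in the 3 Loperamide libraries, G6pc2 overlaps between all groups, and Slc2a2 is below 0.4 FPKM in all 12.

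Kcnj11, the pore of the channel (ENSMUSG00000096146, chromosome 7, 46093953 to 46100764, minus strand), fell to less than its DMSO range in every library with the inhibitor. It stood at 77.0, 76.7 and 77.2 FPKM in DMSO replicates 1, 2 and 3, and at 35.4, 37.4 and 31.8 FPKM with FoxOi. It stood at 90.6, 92.9 and 91.2 FPKM with loperamide, and at 54.2, 49.7 and 54.5 FPKM with both compounds. No pair of the 4 groups overlapped, and non-overlapping groups were found for 48.5% (FoxOi against DMSO), 43.2% (loperamide against DMSO), 52.1% (both against DMSO), 40.9% (both against FoxOi), 50.2% (both against loperamide) and 57.5% (FoxOi against loperamide) of all genes tested. The order from high to low was Loperamide, DMSO, FoxOi_Loperamide and FoxOi. With FoxOi it was 2.189-fold lower than in DMSO, which is -1.13 ± 0.08 on the log2 scale (SE, adjusted p = 5.1e-08). With both compounds it was at -0.54 ± 0.08 against DMSO (adjusted p = 4.18e-05), and loperamide raised it by 0.59 ± 0.08 over FoxOi alone (adjusted p = 4.62e-05).

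Loperamide alone raised Kcnj11 less, by 0.26 ± 0.08 on the log2 scale, or 1.19-fold (adjusted p = 0.0188). This call was lost without any one of the 3 DMSO libraries (adjusted p = 0.0636, 0.0861 and 0.0586 without replicates 1, 2 and 3), without Loperamide replicate 2 (0.0537) or 3 (0.0503), with upper-quartile scaling (0.0537) and with no filter on low counts (0.0927). The interaction, here the log2 change from FoxOi to both compounds minus the change from DMSO to loperamide, was 0.33 ± 0.11 for Kcnj11 (unadjusted p = 0.00802, adjusted p = 0.0697). DESeq2 called that difference (0.35, adjusted p = 0.0138), as did edgeR with the replicate numbers as a block (0.33, adjusted p = 0.00449). In the edgeR fit of the groups alone, without 1 library at a time, its adjusted p ran from 0.0558 to 0.162.

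Abcc8, the sulfonylurea receptor that gives the channel its sensitivity to nucleotides and drugs (ENSMUSG00000040136, chromosome 7, 46104523 to 46180033, minus strand), moved in the same directions as the pore gene with each compound alone, but by other amounts. It stood at 308, 306 and 298 FPKM in DMSO replicates 1, 2 and 3, and at 184, 169 and 198 FPKM with FoxOi. It stood at 450.0, 465 and 469 FPKM with loperamide, and at 289, 254 and 296 FPKM with both compounds. The FoxOi and Loperamide libraries lay apart from all others, while the highest library with both compounds was just under the lowest DMSO library. Over these pairs of groups, 40.9% to 57.5% of all genes tested did not overlap either. Against DMSO Abcc8 was 1.64-fold lower with FoxOi (log2 fold change -0.71 ± 0.08, adjusted p = 9.64e-06) and 1.52-fold higher with loperamide (0.61 ± 0.08, adjusted p = 7.3e-05).

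With both compounds Abcc8 was at -0.12 ± 0.08 against DMSO (adjusted p = 0.256, 95% confidence interval -0.30 to 0.06). That difference did not pass the test although the 3 libraries of each group did not overlap, as was so for 52.1% of all genes tested in this comparison. Loperamide raised Abcc8 by 0.59 ± 0.08 over FoxOi (adjusted p = 9.38e-05), and FoxOi lowered it by 0.73 ± 0.08 over loperamide (adjusted p = 1.03e-05). The interaction was -0.01 ± 0.12 (adjusted p = 0.971, interval -0.26 to 0.24), so a departure from the sum of both effects was not detectable within that interval.

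The direct comparison of FoxOi with loperamide gave the widest gap for both channel genes, at -1.39 ± 0.08 for Kcnj11 (adjusted p = 4.11e-09) and -1.32 ± 0.08 for Abcc8 (adjusted p = 1.65e-08).

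Since the subunits join in equal numbers, the ratio of their transcripts was taken within each library, where the library scaling cancels. Protein was not measured, so this ratio does not give that of the subunits. Abcc8 was 4.01, 3.99 and 3.86 times Kcnj11, in FPKM, in DMSO replicates 1, 2 and 3. The ratio was 5.20, 4.53 and 6.22 with FoxOi, 4.96, 5.01 and 5.15 with loperamide, and 5.33, 5.12 and 5.43 with both compounds. All 9 treated libraries lay above the 3 of DMSO, and the 3 treated groups overlapped with each other. The group means on the log2 scale were 0.41, 0.35 and 0.42 above DMSO with FoxOi, loperamide and both. An exact permutation test over all 369600 ways to split the 12 libraries into these groups, which takes differences in any direction, gave p = 0.0142 (0.0142 adjusted over the 3 ratios tested). With the inhibitor Kcnj11 was at -1.13 and Abcc8 at -0.71 on the log2 scale, and with loperamide they were at 0.26 and 0.61. The level of the ratio depends on the gene lengths: with the union of all annotated exons (8090 bases for Abcc8 and 3677 for Kcnj11) it was 2.79 ± 0.06 in DMSO in place of 3.95 ± 0.08, while its change between groups is the same by construction.

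**Figure D2:**
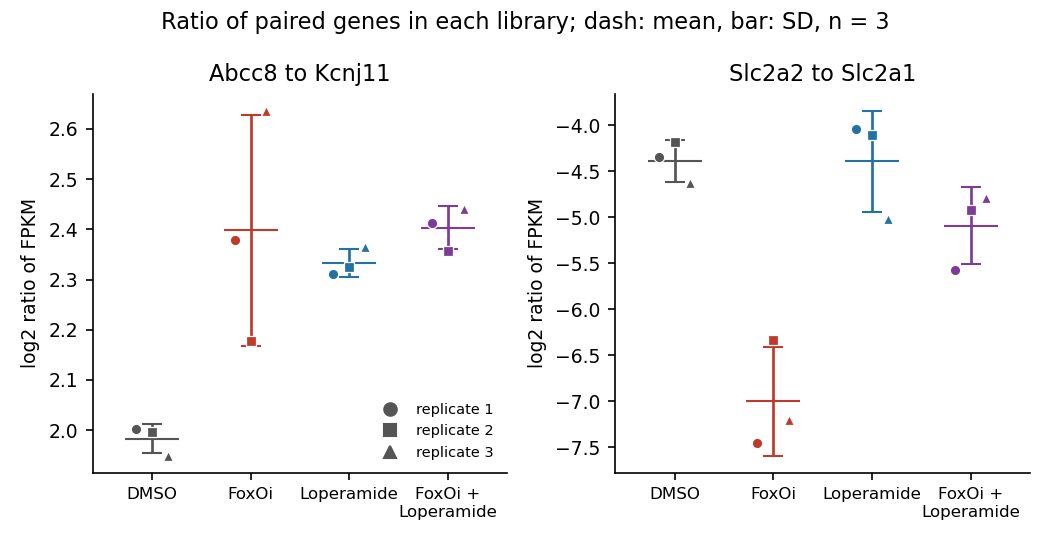
Log2 ratios of FPKM within each library for Abcc8 to Kcnj11 and Slc2a2 to Slc2a1, with symbols for replicates 1 to 3 and the mean ± SD of each group. The 3 DMSO libraries have the lowest Abcc8 to Kcnj11 ratios, and the 3 FoxOi libraries have the lowest Slc2a2 to Slc2a1 ratios.

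The other genes of the channel family were nearly silent. Abcc9 (SUR2), the regulatory subunit of muscle, had 12 counts over the 12 libraries. Kcnj8 (Kir6.1), its vascular pore partner, had 0 counts among 188948180, which allows up to 3 counts or 0.0159 CPM (counts per 1000000 counts of the library), for counting error only.

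Slc2a2 (ENSMUSG00000027690, chromosome 3, 28697903 to 28731359, plus strand) was the member with the least reads. It had 33, 34 and 20 counts in DMSO replicates 1, 2 and 3, and 12, 27 and 15 with FoxOi. It had 19, 23 and 13 counts with loperamide, and 19, 25 and 21 with both compounds. In FPKM these were 0.373, 0.380 and 0.264 in DMSO, 0.124, 0.264 and 0.135 with FoxOi, 0.315, 0.313 and 0.166 with loperamide, and 0.187, 0.278 and 0.227 with both. FoxOi replicate 2 lay at the level of DMSO replicate 3, and every pair of groups overlapped. The log2 fold change with FoxOi was -0.95 ± 0.33 (adjusted p = 0.0293, 95% interval -1.65 to -0.26), and it no longer passed when 1 library was dropped, be it DMSO replicate 1 (0.0671), DMSO replicate 2 (0.0889), FoxOi replicate 1 (0.0918) or FoxOi replicate 3 (0.107).

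No other comparison of Slc2a2 passed the test. Its log2 fold change was -0.38 ± 0.33 with loperamide (adjusted p = 0.406) and -0.57 ± 0.32 with both compounds (0.16), against DMSO. It was 0.38 ± 0.34 for both compounds against FoxOi (0.449), -0.19 ± 0.34 for both against loperamide (0.698) and -0.57 ± 0.35 for FoxOi against loperamide (0.192). The interaction was 0.76 ± 0.47 (0.366). At 12 to 34 counts per library the 95% intervals were wide, such as -1.08 to 0.32 with loperamide against DMSO, and differences within them were not detectable at this depth.

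The balance of the 2 transporters was measured within each library. Slc2a1 stood at 6.998 ± 0.54 FPKM in DMSO, 21.003 ± 0.93 with FoxOi, 5.32 ± 0.12 with loperamide and 7.86 ± 1.37 with both compounds (SD, n = 3). It rose with FoxOi by 1.60 ± 0.11 on the log2 scale (adjusted p = 8.22e-08), and the combination was 1.43 ± 0.11 lower than FoxOi. Slc2a2 was 0.0492, 0.0553 and 0.0404 of Slc2a1 in DMSO, and 0.00569, 0.0124 and 0.00678 with FoxOi. It was 0.0608, 0.0580 and 0.0308 of Slc2a1 with loperamide, and 0.0211, 0.0330 and 0.0362 with both. The 3 FoxOi libraries were below all others, 6.12-fold below DMSO on average (exact permutation test over 4 groups, p = 0.00292, 0.00438 adjusted over 3 ratios). Slc2a1 itself had 662 to 3806 counts per group, against 54 to 87 for Slc2a2.

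G6pc2 (ENSMUSG00000005232, chromosome 2, 69211073 to 69227841, plus strand) was the most abundant of the 4 genes and passed the test in no comparison of the edgeR fit of the groups alone. With the replicate numbers as a block, it was called for both compounds against loperamide (-0.17, adjusted p = 0.0213). G6pc2 stood at 902, 849 and 876 FPKM in DMSO replicates 1, 2 and 3, and at 922, 902 and 843 FPKM with FoxOi. It stood at 1010 (1009.89), 898 and 943 FPKM with loperamide, and at 948, 740 (739.71) and 869 FPKM with both compounds. All pairs of groups overlapped, and the lowest value was that of FoxOi_Loperamide replicate 2. Against DMSO the log2 fold change was 0.03 ± 0.09 with FoxOi (adjusted p = 0.794), 0.12 ± 0.09 with loperamide (0.331) and -0.04 ± 0.09 with both (0.754). Over the 6 comparisons between pairs of groups, the 95% confidence intervals ran from -0.36 at the lowest to 0.32 at the highest, so larger changes lay outside them. The interaction was -0.20 ± 0.13 (adjusted p = 0.405).

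The promoter sequences at hand held no entry for Abcc8 or Kcnj11, so neither channel gene was searched for motifs. The 250 bases before the start sites of Slc2a2 and G6pc2, genes at opposite ends of the expression range in the same cells, are shown. They are from RefSeq (build GRCm38.p6), plus strand, 5′ to 3′, at chr3:28697653-28697902 and chr2:69210823-69211072, with capitals on the E-box (CANNTG), the only one of the motifs searched that either holds.
Slc2a2: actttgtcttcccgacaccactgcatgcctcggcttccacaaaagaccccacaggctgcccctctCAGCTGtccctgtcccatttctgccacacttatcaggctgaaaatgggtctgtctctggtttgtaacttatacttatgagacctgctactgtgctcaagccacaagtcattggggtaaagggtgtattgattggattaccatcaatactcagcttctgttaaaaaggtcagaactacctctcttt
G6pc2: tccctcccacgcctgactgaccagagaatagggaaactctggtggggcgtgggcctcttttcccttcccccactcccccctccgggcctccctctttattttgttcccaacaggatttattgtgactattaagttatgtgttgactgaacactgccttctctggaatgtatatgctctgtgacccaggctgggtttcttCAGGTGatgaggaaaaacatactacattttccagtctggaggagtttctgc
The Slc2a2 match lies 185 to 180 bases before the start and the G6pc2 match 51 to 46 bases before it. E-boxes bind helix-loop-helix factors such as NEUROD1, and 66.2% of 32851 promoters of this length hold one on either strand. The other motifs, also searched on both strands, were the forkhead core TGTTTAC (in 3.17% of promoters), the MAF site TGCTGA (16.1%), the homeobox core TAATTA (4.84%), the HNF1 site GTTAAT (6.43%), the carbohydrate response E-box CACGTG (6.02%), which is itself an E-box by the letters above, the cyclic AMP response site TGACG (17.8%) and TATAAA (12.4%). These letters were not in the window of Slc2a2 or of G6pc2, and the GC content was 47.2% and 50.0%.

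Counted over the 4 genes, 3 were called lower with FoxOi against DMSO (Kcnj11, Abcc8 and Slc2a2), where 20.3% of all genes tested were called lower. With loperamide 2 were called higher (16.1% of all genes), and with both compounds 1, Kcnj11, was called lower (23.2%). Of the comparisons without DMSO, 2 genes were higher with both compounds than with FoxOi (11.5%), 2 were lower with both than with loperamide (20.5%) and 2 were lower with FoxOi than with loperamide (24.1%). In each of these 5 comparisons after the first, the called genes were those of the channel. For the interaction the edgeR fit of the groups alone called 0 of the 4 genes (9.48% of all genes in either direction). In that fit 1, Kcnj11, had an unadjusted p under 0.05. DESeq2 called that 1, as did edgeR with the replicate numbers as a block (adjusted p = 0.00449). The comparisons against DMSO share the 3 DMSO libraries.

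**Figure D3:**
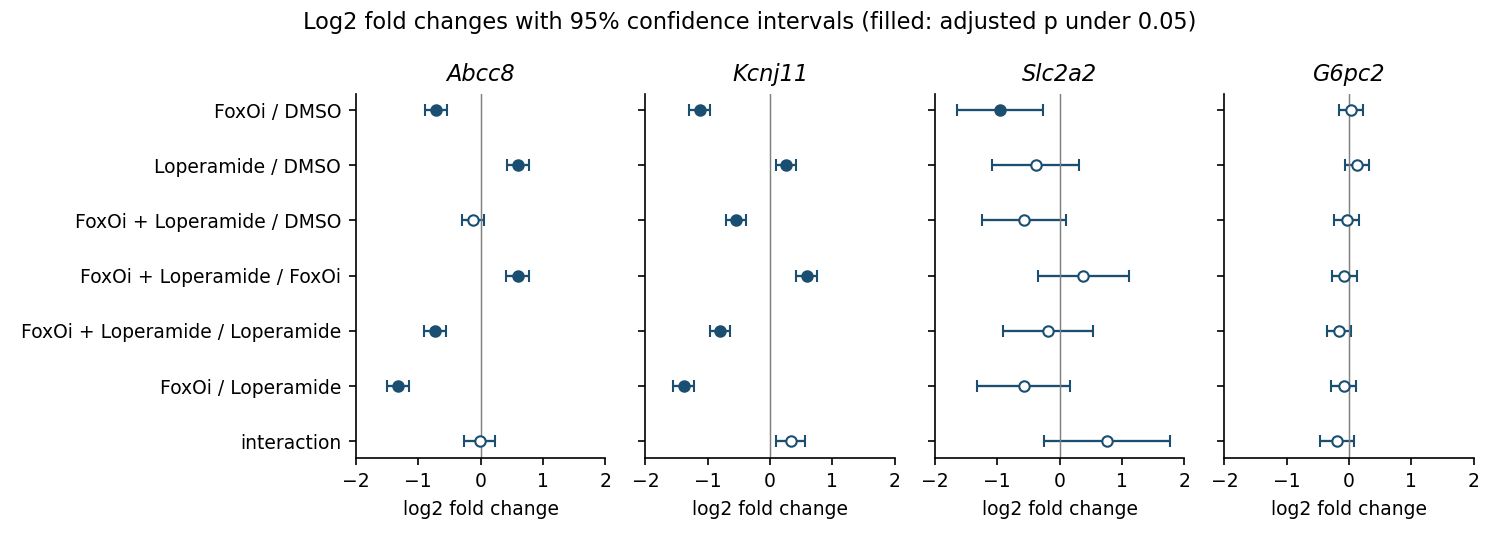
Log2 fold changes (x axis) of the 4 genes in the 7 comparisons, the first group named over the second, with 95% confidence intervals from the edgeR fit; filled points have an adjusted p under 0.05. The points of G6pc2 lie between -0.20 and 0.12, those of Kcnj11 and Abcc8 reach -1.39 and -1.32 for FoxOi over loperamide, and the intervals of Slc2a2 are the widest.

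The genes around the channel were counted in lists, with the median of all genes tested beside that of the list. Over all genes tested, 20.7% were higher and 20.3% lower with FoxOi, 16.1% and 15.8% with loperamide, 22.3% and 23.2% with both compounds against DMSO, and 3.66% and 5.82% in the interaction. Of 11 glucose transporters 8 were tested. With FoxOi 1 was higher, Slc2a1, and 4 were lower, the lowest being Slc2a4 (GLUT4, the transporter of muscle and fat) at -1.30 ± 0.33, with a list median of -0.50 against 0.01 for all genes. With loperamide 1 was higher, Slc2a8 at 0.63 ± 0.12, and 2 were lower, Slc2a13, a myo-inositol transporter, at -0.94 ± 0.26 and Slc2a1 at -0.39 ± 0.12 (median -0.21 against 0.02). That Slc2a1 call (adjusted p = 0.0222) was lost without DMSO replicate 1 (0.0688) and without Loperamide replicate 1 (0.0644), 2 (0.0537) or 3 (0.0512), and the Slc2a13 call (0.0130) without Loperamide replicate 2 (0.0563). With both compounds 0 were higher and 3 were lower, with Slc2a4 at -2.14 ± 0.37 (median -0.51 against 0.01). In the interaction 2 were lower, with Slc2a1 at -1.04 ± 0.16, and 0 were higher (median -0.24 against -0.02).

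Of 17 genes listed for glucose phosphorylation and the glucose-6-phosphate cycle 13 were tested, and they did not move in 1 direction. With FoxOi 4 were higher and 3 lower (median 0.03 against 0.01). Slc37a2, a sugar phosphate exchanger, was at 2.09 ± 0.15, from 0.673 to 2.83 FPKM. Slc37a4, which carries glucose-6-phosphate into the endoplasmic reticulum where G6PC2 acts, was at -1.16 ± 0.09, from 24.9 ± 1.17 to 11.1 ± 1.11 FPKM. So the feeder of the reaction fell while the phosphatase gene did not pass the test. With loperamide 1 was higher, Slc37a1 at 0.66 ± 0.09, and 4 were lower, with the hexokinase Hk1, of high affinity for glucose, at -0.50 ± 0.10 (median -0.15 against 0.02). With both compounds 3 were higher and 3 lower, with the isomerase Gpi1 at 0.64 ± 0.08 and Slc37a4 at -0.77 ± 0.09 (median -0.04 against 0.01). In the interaction 1 was higher, Slc37a4 at 0.67 ± 0.13, and 2 were lower, with Slc37a2 at -2.02 ± 0.22 (median 0.08 against -0.02). G6pc, the liver phosphatase, was untested at 8 counts over all libraries.

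Of 16 genes that couple glucose to mitochondrial ATP 15 were tested. With FoxOi 5 were higher, with the aminotransferase Got1 at 0.66 ± 0.09, and 3 lower, with Gpd2, of the glycerol phosphate shuttle, at -1.46 ± 0.14 (median 0.12 against 0.01). With loperamide 1 was higher, Pcx, pyruvate carboxylase, at 0.26 ± 0.07, and 4 were lower, with Mdh1, a malate dehydrogenase, at -0.63 ± 0.09 (median -0.19 against 0.02). The Pcx call (adjusted p = 0.0170) was lost without DMSO replicate 2 (0.0659) or 3 (0.0733), without Loperamide replicate 3 (0.0712) and with no filter (0.1). With both compounds 5 were higher, with the pyruvate carrier Mpc1 at 1.84 ± 0.15, and 2 lower, with Gpd2 at -0.71 ± 0.14 (median -0.04 against 0.01). In the interaction 4 were higher, with Mpc1 at 1.20 ± 0.21, and 0 lower (median 0.19 against -0.02).

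Downstream of channel closure, 12 of 14 genes of the electrical response were tested. With FoxOi 1 was higher, the potassium channel Kcnh2 at 0.49 ± 0.10, and 6 were lower, with the cation channel Trpm5 at -1.55 ± 0.13 (median -0.39 against 0.01). With loperamide 6 were higher and 1 lower, the potassium channel Kcnk16 at -0.81 ± 0.21 (median 0.33 against 0.02). With both compounds 2 were higher, with the calcium channel Cacna1c at 0.94 ± 0.13, and 6 lower, with Trpm5 at -2.37 ± 0.13 (median -0.29 against 0.01). In the interaction 0 were higher and 3 lower, with Kcnh2 at -1.40 ± 0.14 (median -0.34 against -0.02). Of 3 genes whose products bind the channel, 2 were higher and 1 lower with FoxOi, 2 and 0 with loperamide, 2 and 1 with both and 0 and 2 in the interaction. Ank2, an ankyrin that binds Kir6.2, rose with FoxOi by 0.85 ± 0.13, with loperamide by 1.21 ± 0.13 and with both by 1.16 ± 0.13 (interaction -0.90 ± 0.18). Rapgef4, the cyclic AMP sensor EPAC2 that binds SUR1, was at -1.17 ± 0.09 with FoxOi and -0.79 ± 0.09 with both.

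Transcription factors that beta cells use at these genes were counted last. Of 15 tested, 12 were lower and 0 higher with FoxOi (median -1.13 against 0.01), with Mlxipl, the glucose-responsive factor ChREBP, at -3.37 ± 0.21. With loperamide 6 were higher and 2 lower (median 0.12 against 0.02), with Mlxipl at 0.74 ± 0.19 and Hnf4a at -0.64 ± 0.12. With both compounds 9 were lower and 0 higher (median -0.58 against 0.01), with Mlxipl at -2.79 ± 0.21. In the interaction 5 were higher and 0 lower, with Mafa at 1.07 ± 0.20 (median 0.20 against -0.02).

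**Figure D4:**
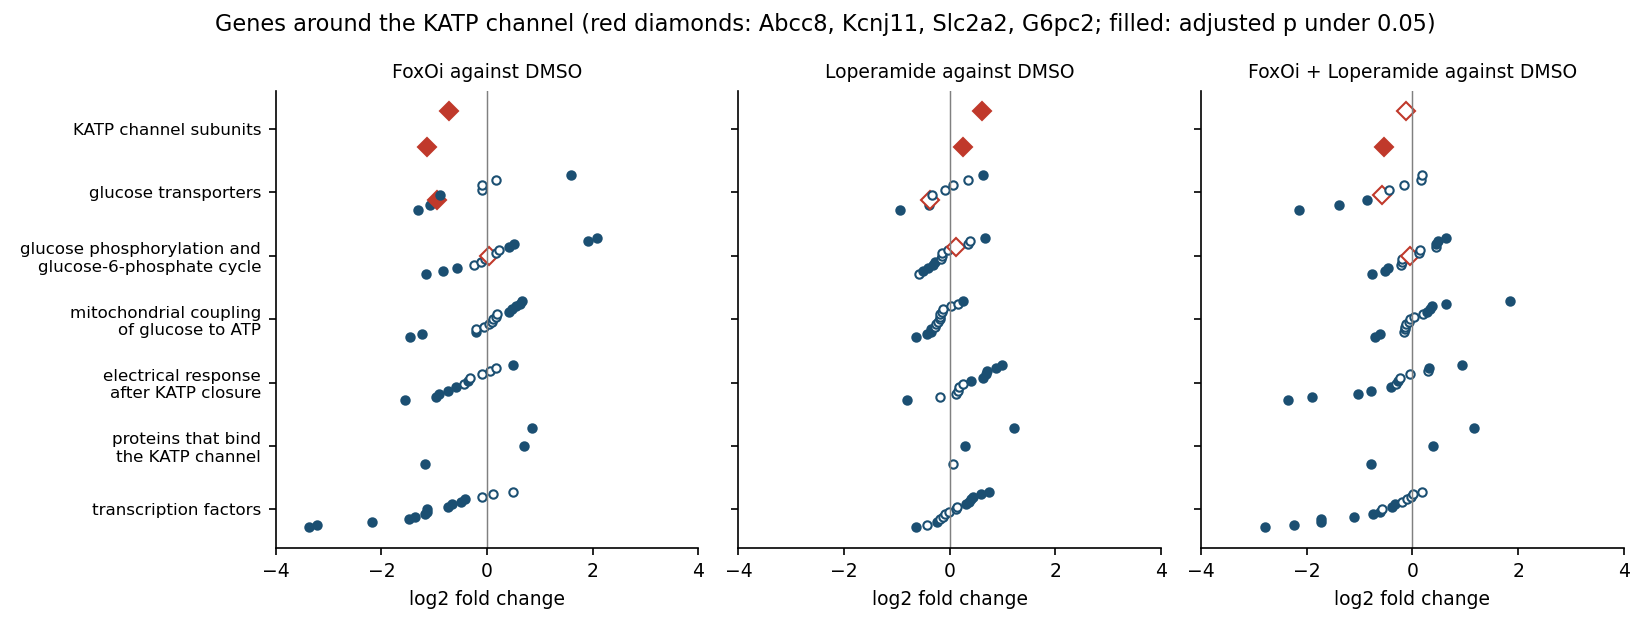
Log2 fold changes (x axis) against DMSO of the tested genes in 7 lists around the KATP channel, 1 point per gene and 1 row per list, in 3 panels for FoxOi, loperamide and both compounds; red diamonds are Abcc8, Kcnj11, Slc2a2 and G6pc2, and filled symbols have an adjusted p under 0.05. Transcription factors are mostly left of 0 with FoxOi (12 of 15 called lower), and 6 of 12 electrical response genes are called higher with loperamide.

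The members were also compared with the genes beside them. Abcc8 and Kcnj11 are neighbours on the minus strand of chromosome 7, 3759 bases apart. Within 100 kb of a member lie 20 other genes, of which 14 were tested. With FoxOi 2 of these were higher and 3 lower, where 20.7% and 20.3% of all genes tested were. With loperamide 0 were higher and 5 lower (16.1% and 15.8% of all genes). With both compounds 1 was higher and 4 were lower (22.3% and 23.2%). Nomo1, 9741 bases beyond Kcnj11, was at -0.06 ± 0.26 with FoxOi (adjusted p = 0.884) and -0.85 ± 0.26 with loperamide (0.0282), a call lost without DMSO replicate 3 (0.0817) and without Loperamide replicate 1 (0.0954) or 2 (0.0706). Ush1c, 15317 bases beyond Abcc8, was lower with each compound, at -0.44 ± 0.12 with FoxOi, -0.60 ± 0.12 with loperamide and -0.74 ± 0.12 with both. So the rise of the channel genes with loperamide was not seen in these 2 genes beside them.

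Gm45487, an unclassified transcript on the same strand inside the body of Abcc8, had 266 counts in DMSO, 85 with FoxOi, 288 with loperamide and 122 with both. Its log2 fold change was -1.90 ± 0.27 with FoxOi (adjusted p = 6.37e-05), 0.40 ± 0.24 with loperamide (0.222) and -1.28 ± 0.26 with both (0.000994). It is not in an exon of Abcc8, since no exon of a tested or untested neighbour overlaps an exon of a member (0 bases). The strand setting of the counting is not given in the sources used here, and the antisense transcripts Gm45486 in Abcc8 (145 counts in all) and 1700112D23Rik in Slc2a2 (109 counts in all) share 0 exon bases with these genes.

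Beside G6pc2, Spc25, a kinetochore gene on the other strand whose start lies 4879 bases from that of G6pc2, moved while G6pc2 did not pass the test. Spc25 stood at 324 ± 20.5 FPKM in DMSO, 618 ± 53.1 with FoxOi, 216 ± 11.6 with loperamide and 328 ± 8.47 with both (SD, n = 3). Its log2 fold changes were 0.95 ± 0.08 with FoxOi (adjusted p = 4.44e-07), -0.58 ± 0.08 with loperamide (8.64e-05) and 0.02 ± 0.08 with both (0.864). Abcb11, on the far side of G6pc2, had 356 counts in all and passed none of the tests against DMSO, and the antisense Gm13613 inside it fell with FoxOi (-1.66 ± 0.32), with loperamide (-1.45 ± 0.34) and with both (-2.85 ± 0.38).

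Across the 12 libraries, the pattern of each member was compared with 12306 other genes by the root mean square difference of log2 CPM, each gene centred on its DMSO mean. Nearest to Abcc8 were Bcl9 (0.0958), Nova2 (0.105) and Irf2 (0.111), where the median gene was at 0.599. Nearest to Kcnj11 were Pcx (0.0956), Mpp3 (0.101) and Slc12a5 (0.129), with a median of 0.729. Abcc8 and Kcnj11 were 0.357 from each other, which is less than the median for either (0.599 and 0.729). A distance under the median was not particular to this pair. Abcc8 was 0.458 from G6pc2, and Kcnj11 was 0.471 from Slc2a2 and 0.642 from G6pc2. Abcc8 was 0.672 from Slc2a2, which is over the Abcc8 median. The nearest genes are the smallest of 12306 distances, so they are no yardstick for Abcc8 and Kcnj11. Nearest to G6pc2 were Klc1 (0.0548), Trmt112 (0.0634) and Csnk2a2 (0.0729), with a median of 0.371. Nearest to Slc2a2 were Lyplal1 (0.302), Hexim2 (0.317) and Tesk2 (0.318), with a median of 0.763. The last 3 distances are larger, and the Slc2a2 pattern rests on 12 to 34 counts per library. These distances describe 12 libraries that share 3 DMSO samples as their centre, and they carry no test.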

How the data were processed

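Poly(A) RNA of Min6 cells was sequenced as strand-specific libraries in single reads, per the labels. The authors deposited raw counts per gene and FPKM values, in 2 tables with a column for each of 12 libraries. STAR 2.7.5a, Picard 2.19.2, DESeq2 and the builds GRCm38 and mm10 are named in the submitters' processing notes. What counted the reads, and with which strand setting, is not given in the sources used here. Each deposited FPKM is a count divided by a gene length and a library factor, which lay within 0.226% of DESeq2 size factors over 12843 genes. Coordinates come from the deposited tables.

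The tests on counts used edgeR 4.0.16 (R 4.3.3), with genes kept by filterByExpr (minimum count 10, minimum total 15), TMM scaling and a robust quasi-likelihood model of the 4 groups over all 12 libraries. P-values were adjusted by Benjamini-Hochberg over all genes tested and called at 0.05. Each SE was taken from the log2 fold change and its F statistic. Scripts were tested on simulated data. Alternatives used DESeq2 1.42.0, limma 3.58.1 on log2(FPKM + 0.1) or log2(FPKM + 1), other scalings, no filter, a replicate block, 2-group fits and leaving out each library. Chi-square per degree of freedom between replicates was 5.09 to 32.1, so no library repeats another.

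The members, lists, ratios and tests were chosen with earlier results of these data known. Named genes are the members, Slc2a1, the called gene with the largest rise and fall in each list (comparisons against DMSO and the interaction), tested genes within 100 kb of a member, and the 3 genes of most alike pattern (mean of at least 1 CPM, no predicted-gene symbol). Pyruvate carboxylase was matched by its symbol in the files, Pcx. Of 3 ratios tested, 1 is not reported here, nor are some genes that the rule names.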

Additional observations from a re-analysis of the deposited data

Results flagged for a closer look

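No member met a rule for a closer look, and groups of 3 libraries were not searched for outlying libraries. Of 68 list genes tested, members included, 19 had a log2 effect of loperamide in the presence of the inhibitor that differed from its effect without it, by the interaction term of the edgeR fit, where 9.48% of all genes did. The 7 given here are those that the rule for named genes picks, as the largest in each direction of each list. The difference was -1.04 for the glucose transporter Slc2a1 (adjusted p = 0.000983), -2.02 for Slc37a2 (5.53e-05) and 0.67 for Slc37a4 (0.00361), the exchangers of glucose-6-phosphate. It was 1.20 for the pyruvate carrier Mpc1 (0.00208), -1.40 for the potassium channel Kcnh2 (3.86e-05), -0.90 for Ank2 (0.00468) and 1.07 for the insulin gene activator Mafa (0.00331).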

How the results depend on the processing

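Of the alternatives that keep all libraries, 301 values for the members, the 3 ratios and the counts of genes called stayed the same. For a member, this means the same direction and side of the threshold. For a ratio it means the same side of the threshold, and for a count a change of at most 1.5 times. The ratio with exon-union lengths is among the 301 and was the same by construction. Of the other values, 3 lost a call, 3 gained one, 7 changed sign and 3 counts moved by over 1.5 times. Slc2a2 with FoxOi against DMSO lost its call with limma on unfiltered log2(FPKM + 1) (-0.19, adjusted p = 0.1252). Limma on filtered log2(FPKM + 1) kept the call. The added 1 shrinks the log2 change of low genes in both of these fits. Kcnj11 with loperamide lost its call with upper-quartile scaling (0.22) and no filter (0.24). The Abcc8 interaction, at -0.01, changed sign with DESeq2 (0.00697), RLE scaling (0.0049), upper-quartile scaling (0.033), no filter (0.027) and limma on log2(FPKM + 0.1) (0.0048), filtered log2(FPKM + 1) (0.0038) and unfiltered log2(FPKM + 1) (0.0038), with an adjusted p of 0.915 or more each time. The Kcnj11 interaction was called with DESeq2 (0.35). The causes were not tested. Leaving out 1 library at a time, the log2 fold change of Slc2a2 with FoxOi against DMSO ran from -1.37 to -0.79, that of Kcnj11 with loperamide against DMSO from 0.23 to 0.26, and that of Slc2a2 for FoxOi against loperamide from -0.99 (without FoxOi replicate 2, adjusted p = 0.0406) to -0.40. G6pc2 ran from -0.0213 to 0.0677 with FoxOi against DMSO, from -0.114 to 0.0524 with both compounds against DMSO and from -0.149 to 0.0177 for both against FoxOi, and the Abcc8 interaction from -0.0692 to 0.0517. Lengths from exon unions were an alternative chosen after the data were seen.

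The labels give each group replicates 1 to 3, and their descriptions carry 1 code per replicate number that is shared by all 4 groups, with no word on what it marks. Deviations from the group means correlated at r = 0.0833 to 0.473 over 18 pairs of libraries with the same number, of which 17 were above 0.1, and at -0.433 to 0.0895 over 36 pairs with different numbers. In 36 of 36 combinations of a library and another group the best partner had the same number, which is a hint from the data, since the labels do not say that a number or code marks a shared culture, batch or day. With the replicate block, the count over all genes went from 5370 to 8179 for loperamide against DMSO, from 4465 to 7504 for both compounds against FoxOi and from 1594 to 4334 for the interaction. The block called the Kcnj11 interaction (0.33, adjusted p = 0.00449) and G6pc2 for both compounds against loperamide (-0.17, adjusted p = 0.0213), and changed no other call of the members. Permuting within replicate numbers, the exact p of the ratios was 0.0451 for Abcc8 to Kcnj11 and 0.0139 for Slc2a2 to Slc2a1.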
